A study of Mus musculus with 4 samples.

Results

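The 9 genes described here encode transcription factors of the MEIS, PBX, PREP and HOX families, namely *Meis1*, *Pbx2*, *Pbx3*, *Pknox1*, *Hoxa5*, *Hoxa7*, *Hoxa9*, *Hoxa10* and *Hoxb4*. They were taken by symbol, as a set of known stem cell genes, from a deposited table of 18598 genes, and all 9 were listed and passed the filter on low values. RNA was measured in LSK cells, the lineage-negative, SCA-1-positive and c-KIT-positive bone marrow cells among which blood stem and progenitor cells lie. There were 2 libraries of Bptf cKO cells (Bptf -/- in the labels, Bptf f/f with Mx1-cre in the study's methods) and 2 of control cells (Bptf f/f littermates). Each library pooled 5 C57BL/6 mice of about 3 months. All mice had received pIpC, which switches on Mx1-cre, and cells were sorted 10 days after induction. The Mx1 promoter answers to interferon and is not restricted to stem cells, and the control mice carried no cre. The question was how loss of BPTF, the largest subunit of the chromatin remodeler NURF, bears on the genes that keep blood stem cells in being.

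HOX proteins are homeodomain factors that read short AT-rich DNA sites and gain specificity by binding DNA together with partners. PBX proteins are such partners, and MEIS and PREP proteins bind PBX and hold it in the nucleus. MEIS, PBX and PREP belong to the TALE class, whose homeodomain carries an insertion of a few residues. In mouse bone marrow, *Hoxa9* and *Meis1* are high in stem and early progenitor cells and go down as cells mature, and the same pair with a PBX partner drives many leukemias with a rearranged *Kmt2a*.

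Of the 9 genes, *Meis1* showed the clearest difference between genotypes, with a mean in Bptf cKO cells at 0.703 times that in control cells. Of the HOX genes, *Hoxa5* and *Hoxa9* lay below and *Hoxa7* and *Hoxb4* above the range of the control libraries in each Bptf cKO library, but none of these 4 differences passed a test. With *Meis1*, that makes 3 of 9 genes below and 2 of 9 above, beside 23.8% and 23.2% of all tested genes. *Pbx2*, *Pknox1*, *Pbx3* and *Hoxa10* had overlapping groups. With limma, adjusted over all 14858 genes tested, 0 of the 9 genes passed an adjusted p of 0.05, where 0.74% of all tested genes did. At an unadjusted p under 0.05, limma gave 1 of the 9, *Meis1*, beside 15.7% of all tested genes. The edgeR quasi-likelihood test on recovered reads called 0 of them, and DESeq2, the tool that the submitters' notes name, called 1 of the 9, again *Meis1*, beside 5.44% of all tested genes. A share of 1 in 9 is a single gene, so it says nothing about the set as a whole.

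The libraries held between 14091054 and 30134742 recovered reads on listed genes, with both replicate 1 libraries deeper than both replicate 2 libraries. *Bptf* itself, as a check of the labels, was at 5520 and 5850 normalized counts in control and at 3398 and 3320 in Bptf cKO cells (limma adjusted p = 0.0439). Its count covers the whole gene, of which the knockout removes exon 2. Both replicate 2 libraries stood apart from both replicate 1 libraries in several transcripts. The summed level of 6 pluripotency genes was 866 and 1089 normalized counts in control and Bptf cKO replicate 2, and 0.8 and 0.0 in replicate 1. *Xist*, the RNA of the inactive X chromosome, was at 15675 and 11843 in replicate 2 and at 0.8 and 3.2 in replicate 1, while 4 Y-linked genes summed to 1342 and 2528 in replicate 2 and to 5133 and 5052 in replicate 1. The part of these transcripts in the results was not tested, and the difference within the replicate 1 libraries is given for each of the 9 genes. The labels do not say whether a replicate number marks a shared litter or day. The smallest p that exact permutation of 2 libraries against 2 allows is 0.333 (two-sided).

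The stretches of DNA just before the start sites of *Meis1*, *Hoxa9* and *Hoxb4* are shown because these are the member with the clearest difference, its main HOX partner in blood and the member with the largest upward difference. They come from RefSeq on GRCm38.p6, 5′ to 3′ on the strand of the gene, and leave out bases that GENCODE vM21 annotates as exon. The *Meis1* stretch is chr11:19018986-19019219 on the minus strand, the *Hoxa9* stretch chr6:52227371-52227620 on the minus strand, and the *Hoxb4* stretch chr11:96318017-96318266 on the plus strand. The *Hoxa9* start site used, 52227370, lies inside the annotated gene (52223100 to 52231089), so its stretch is not at the 5′ end of the gene. Capitals mark a CCAAT box in *Meis1* and a GC box in *Hoxa9*, and *Hoxb4* held neither.
Meis1: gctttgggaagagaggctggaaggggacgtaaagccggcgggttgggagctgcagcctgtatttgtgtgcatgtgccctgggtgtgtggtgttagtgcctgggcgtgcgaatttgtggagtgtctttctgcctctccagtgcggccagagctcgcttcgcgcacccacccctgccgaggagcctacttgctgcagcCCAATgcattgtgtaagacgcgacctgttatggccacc
Hoxa9: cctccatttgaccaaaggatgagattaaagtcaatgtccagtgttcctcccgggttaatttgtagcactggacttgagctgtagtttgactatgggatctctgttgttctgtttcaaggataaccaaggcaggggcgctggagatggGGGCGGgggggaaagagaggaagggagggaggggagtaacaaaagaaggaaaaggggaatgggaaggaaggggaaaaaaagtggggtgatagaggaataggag
Hoxb4: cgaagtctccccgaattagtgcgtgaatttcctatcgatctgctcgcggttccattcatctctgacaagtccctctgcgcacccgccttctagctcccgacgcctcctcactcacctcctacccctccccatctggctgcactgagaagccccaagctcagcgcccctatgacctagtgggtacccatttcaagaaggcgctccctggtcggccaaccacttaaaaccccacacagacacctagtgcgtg

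Windows of 300 bases around the start site, 250 before and 50 from it on, were at hand for 7 of the 9 genes, with 8 windows in all because *Hoxa10* has 2. The start sites used for *Hoxa9*, *Hoxa7*, *Pbx2* and 1 window of *Hoxa10* lie inside the annotated genes, away from their 5′ ends. Both strands were searched for 6 motifs. The MEIS and PREP core TGACAG was in none of the 8 windows and in 19.2% of all 32851 windows, and the paired HOX-PBX site TGATTTAT was in none of them and in 0.977% of all. The AP1 site TGANTCA (7.81% of all windows) and the cAMP response element TGACGTCA (1.79%) were also in none of the 8. The CCAAT box, present in 37.4% of all windows, was in those of *Meis1*, *Hoxa5* and 1 of *Hoxa10*. The *Meis1* match began 54 bases before the start site. The GC box GGGCGG, in 35.7% of all windows, was in those of *Hoxa9*, *Pbx2* and the other *Hoxa10* window. No matches to different motifs overlapped, and these are descriptions of letters in short windows. The *Meis1* window held 15 CpG dinucleotides, the *Hoxa9* window 4 and the *Hoxb4* window 14, against a median of 7 over all windows, and *Hoxa5* and *Pbx2* had 29 each.

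*Meis1* encodes the TALE factor that joins HOX and PBX proteins on DNA and is needed for blood stem cells to stay quiescent. It spans 139.2 kb of chromosome 11, from 18879817 to 19018985 (minus strand, GRCm38, GENCODE vM21), with 9 annotated transcripts. *Meis1* had 4902 and 5560 normalized counts in control replicates 1 and 2, against 3579 and 3778 in Bptf cKO replicates 1 and 2. Both Bptf cKO libraries lay below both control libraries, as 23.8% of all tested genes did. The log2 difference was -0.51 (standard error 0.10, 95% interval -0.77 to -0.24, limma adjusted p = 0.118), with an edgeR adjusted p of 0.138 and a DESeq2 adjusted p of 0.00884. It was -0.45 between the replicate 1 libraries, which lack the pluripotency and *Xist* transcripts, and -0.56 between the replicate 2 libraries. In bulk RNA, fewer cells of a type and less RNA per cell cannot be told apart. Depth was ample, with at least 2678 reads on *Meis1* in every library. Exons of *Meis1* overlap *Gm37818* on the same strand over 1029 bases and the antisense gene *Gm16140* over 896 bases. Neither was above 240 normalized counts, and how reads in the overlaps were assigned is not given in the sources used here.

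**Figure D1:**
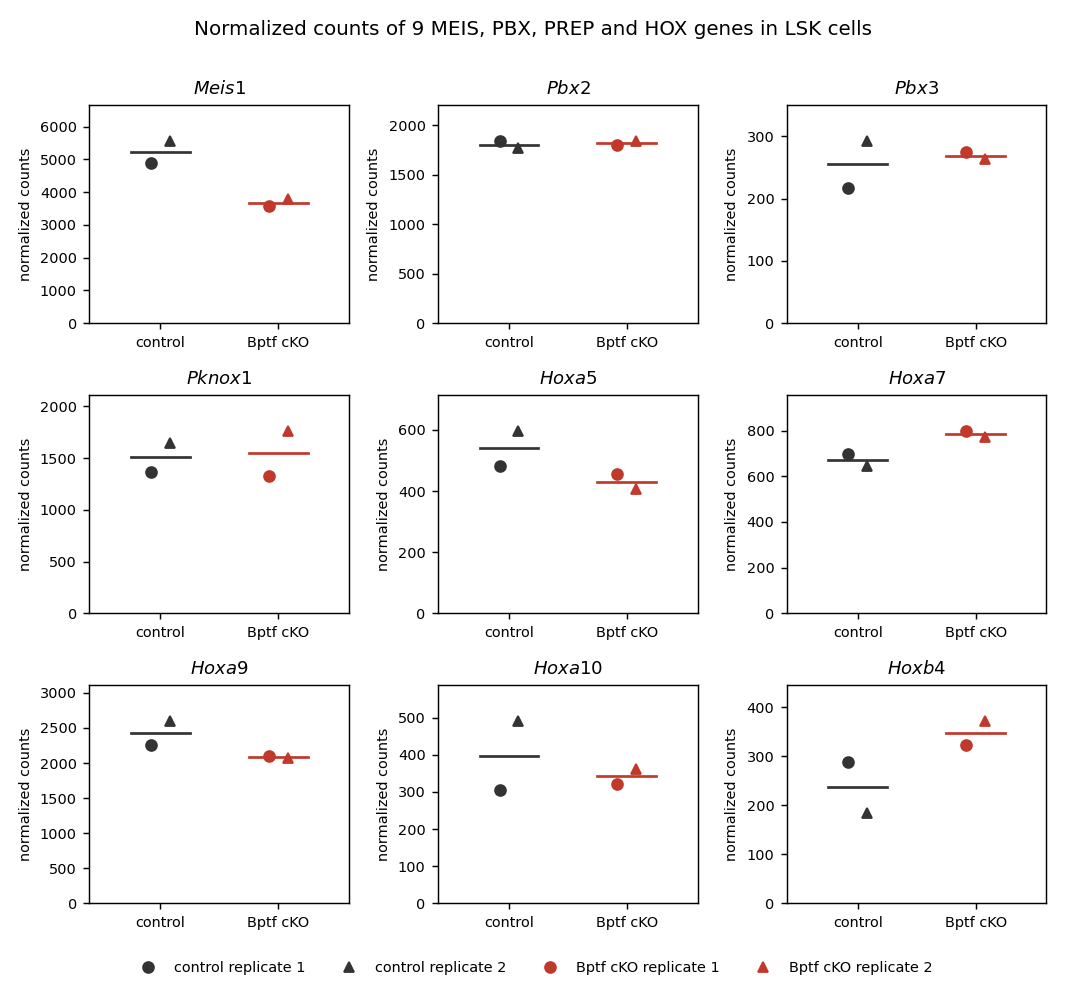
Normalized counts (y axis, from 0) of each of the 9 genes in control and Bptf cKO LSK cells, with 1 point per library and a line at the mean of 2. *Meis1* runs from 4902 to 5560 in control and from 3579 to 3778 in Bptf cKO cells, and *Pbx2* stays between 1768 and 1841 in all 4 libraries.

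*Pknox1* encodes PREP1, the TALE factor that binds PBX in place of MEIS1. It lies on chromosome 17 from 31564734 to 31607693 on the plus strand. *Pknox1* had 1366 and 1651 normalized counts in control replicates 1 and 2, against 1332 and 1761 in Bptf cKO replicates 1 and 2. Libraries of 1 replicate number were nearer to each other than libraries of 1 genotype, and the groups overlapped. The log2 difference was 0.028 (95% interval -0.42 to 0.48, limma adjusted p = 0.964), and it was -0.036 within replicate 1. The products of *Meis1* and *Pknox1* compete for PBX, but protein was not measured here. The ratio of *Meis1* to *Pknox1* RNA within a library follows from the counts above and is given as a description. That ratio was 3.59 and 3.37 in control and 2.69 and 2.15 in Bptf cKO replicates 1 and 2, a log2 difference of -0.53 in normalized counts without correction for length. Both Bptf cKO ratios were below both control ratios (exact permutation p = 0.333).

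*Pbx2* and *Pbx3* encode 2 of the PBX partners. *Pbx2*, on chromosome 17 from 34591266 to 34597400 on the plus strand, had 1841 and 1768 normalized counts in control and 1799 and 1840 in Bptf cKO replicates 1 and 2. It was the steadiest member, and its log2 difference of 0.012 had the narrowest 95% interval, from -0.23 to 0.25 (limma adjusted p = 0.972), with -0.033 within replicate 1. On a linear scale that interval runs from 0.853-fold to 1.19-fold, so a difference of the size seen for *Meis1* lies outside it. The ratio of *Meis1* to *Pbx2* was 2.66 and 3.14 in control and 1.99 and 2.05 in Bptf cKO replicates 1 and 2 (exact permutation p = 0.333). *Pbx2* shares 227 exonic bases with *Gpsm3* on the same strand. *Pbx3*, on chromosome 2 from 34171457 to 34373142 on the minus strand, had 218 and 292 normalized counts in control and 274 and 264 in Bptf cKO replicates 1 and 2. Here both Bptf cKO libraries lay between the control libraries. The log2 difference of *Pbx3* was 0.092 with a wide interval from -0.44 to 0.62 (limma adjusted p = 0.892), and the replicate 1 and replicate 2 libraries gave opposite signs, 0.33 and -0.15.

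**Figure D2:**
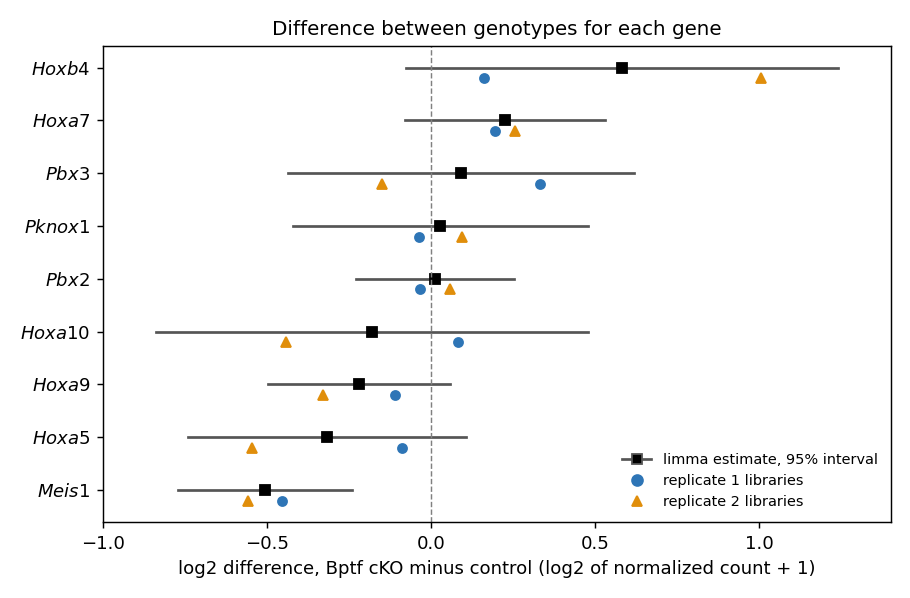
Log2 difference of Bptf cKO minus control (x axis, log2 of the normalized count plus 1) for each gene (y axis), with the limma estimate as a square, its 95% interval as a line, and the difference within replicate 1 (circle) and replicate 2 (triangle) libraries. Only the interval of *Meis1*, from -0.77 to -0.24, does not reach 0, and *Hoxb4* has the widest spread between replicate numbers among the 9, from 0.16 to 1.01.

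Of the HOX genes, *Hoxa9* was the highest per length. Its product is the main HOX partner of MEIS1 in blood, and the gene is found at 52223100 to 52231089 of chromosome 6 (minus strand). *Hoxa9* had 2259 and 2596 normalized counts in control replicates 1 and 2, against 2095 and 2066 in Bptf cKO replicates 1 and 2. Both Bptf cKO libraries were below both control libraries, by a margin smaller than the gap between the control libraries. The log2 difference of -0.22 (standard error 0.11, 95% interval -0.50 to 0.057) did not pass in limma (adjusted p = 0.422) or in DESeq2 (adjusted p = 0.597). Within replicate 1 it was -0.11, within replicate 2 -0.33, and without control replicate 2 the limma estimate was -0.12. The ratio of *Meis1* to *Hoxa9* was 2.17 and 2.14 in control and 1.71 and 1.83 in Bptf cKO replicates 1 and 2, a log2 difference of -0.29 (exact permutation p = 0.333, the smallest possible). The control ratios differed little from each other, and both exceeded both Bptf cKO ratios. Separation was not particular to ratios with *Meis1*. The ratio of *Hoxa9* to *Pbx2* was 1.227 and 1.468 in control and 1.165 and 1.123 in Bptf cKO replicates 1 and 2 (exact permutation p = 0.333).

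*Hoxa5*, on chromosome 6 from 52201754 to 52204587, encodes a more anterior HOXA factor. It had 483 and 596 normalized counts in control and 454 and 408 in Bptf cKO replicates 1 and 2. Groups did not overlap, but within replicate 1 the log2 difference was only -0.088, against -0.55 within replicate 2. The limma estimate was -0.32 (95% interval -0.74 to 0.11, adjusted p = 0.445), and without control replicate 2 it was -0.17.

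*Hoxa7*, next to *Hoxa9* on chromosome 6 from 52214491 to 52221854, is another HOXA gene kept up by KMT2A fusions in leukemia. It had 697 and 644 normalized counts in control and 797 and 770 in Bptf cKO replicates 1 and 2. Both Bptf cKO libraries lay above both control libraries, as 23.2% of all tested genes did. The log2 difference of 0.23 (standard error 0.12, 95% interval -0.078 to 0.53) was close to equal within replicates 1 and 2, at 0.19 and 0.26, yet did not pass (limma adjusted p = 0.450). *Hoxa7* shares 20.4% of its merged exon length with the antisense gene *Hoxaas3*, which had 28.7, 20.8, 25.3 and 15.5 normalized counts in control replicates 1 and 2 and Bptf cKO replicates 1 and 2. Reads of *Hoxa7* and *Hoxaas3* cannot be told apart in the overlap if strand was not used in counting.

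*Hoxa10*, on chromosome 6 from 52231197 to 52240854, is the most posterior HOXA gene listed. It had 305 and 491 normalized counts in control and 322 and 361 in Bptf cKO replicates 1 and 2. Control replicate 2 was high and the other 3 libraries lay close together. The log2 difference was -0.18 (95% interval -0.84 to 0.48, limma adjusted p = 0.809). It was 0.081 within replicate 1 and -0.44 within replicate 2, and without control replicate 2 it was 0.16.

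*Hoxb4*, at 96318267 to 96321638 of chromosome 11 (plus strand), is known for expanding stem cells when overexpressed. It had 288 and 184 normalized counts in control replicates 1 and 2, against 322 and 371 in Bptf cKO replicates 1 and 2. The control replicate 2 value was the lowest and rests on 133 reads, the fewest for any of the 9 genes in any library. Both Bptf cKO libraries were above both control libraries. The log2 difference of 0.58 (standard error 0.26, 95% interval -0.075 to 1.24) was larger than that of *Meis1* in size, with a larger error, and did not pass in limma (adjusted p = 0.370) or in DESeq2 (adjusted p = 0.474). Within replicate 1 it was 0.16 and within replicate 2 it was 1.01, and without control replicate 2 the limma estimate was 0.26.

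Levels of different genes were compared per kilobase of merged exon, which counts the exons of every annotated transcript and so understates a gene with many alternative exons. On this scale the means over the 4 libraries were 498 for *Pbx2*, 423 for *Meis1* and 404 for *Hoxa9*, at percentiles 86.9, 84.2 and 83.4 of the listed genes with a length. Next came *Hoxa5* at 259, *Hoxa7* at 253 and *Pknox1* at 220, then *Hoxb4* at 114 and *Hoxa10* at 113, and *Pbx3* at 42.9. The ranges over the libraries overlapped between neighbours within each of these steps and did not overlap from one step to the next. *Meis1* was level with *Pbx2* in control cells, at 497 ± 44.2 against 496 ± 14.1 (SD, n = 2 each) normalized counts per kb. In Bptf cKO cells *Meis1* was at 349 ± 13.4 and *Pbx2* at 499.8 ± 7.94 (SD, n = 2 each), so that *Hoxa9*, at 373 ± 3.77, then stood between them.

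**Figure D3:**
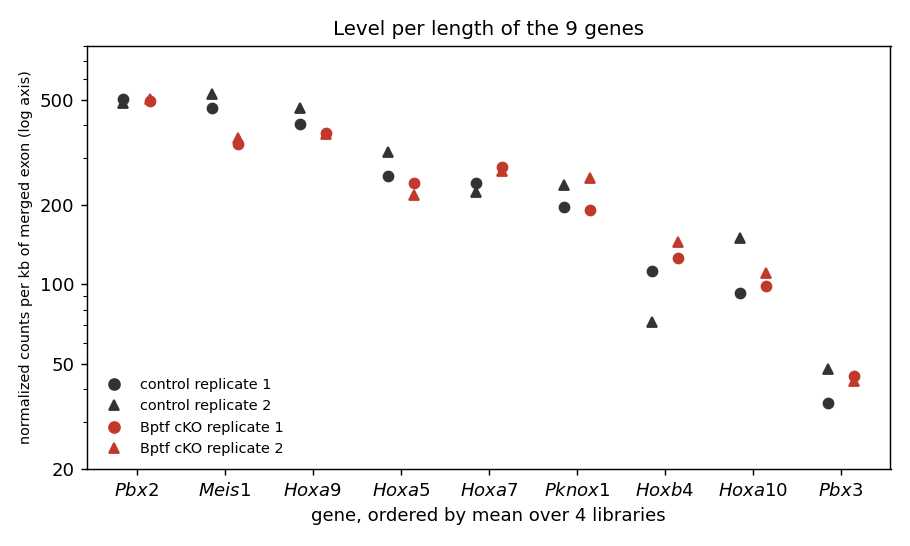
Normalized counts per kb of merged exon (y axis, log scale) for the 9 genes in order of their mean (x axis), with 1 point per library. *Pbx2*, *Meis1* and *Hoxa9* form the top step with means of 498, 423 and 404, and *Pbx3* is lowest at 42.9.

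The rest of the families was read from a fixed list of 33 further HOX genes and 4 further MEIS, PBX and PREP genes. Of the 33 HOX genes 13 were listed and 11 passed the filter. None of the 11 rose or fell in limma (0.74% of all tested genes), edgeR or DESeq2 (5.44% of all). At an unadjusted limma p under 0.05 there was 1 of the 11, beside 15.7% of all tested genes. Their median log2 difference was -0.027, beside 0.0010 over all tested genes, with 4 higher and 7 lower. *Hoxa3* gave the lowest unadjusted p among them, with 243 and 258 normalized counts in control and 176 and 141 in Bptf cKO replicates 1 and 2, a log2 difference of -0.66 (95% interval -1.19 to -0.14, limma adjusted p = 0.232). *Hoxa2* had a log2 difference of -0.66 as well, at 76.7 and 67.9 against 53.9 and 38.1 normalized counts, with a limma adjusted p of 0.426. *Hoxa6* and *Hoxb3* had log2 differences of -0.026 and -0.16, with overlapping groups. *Pbx4*, a PBX gene best known from testis, was at 630 and 420 in control and 422 and 284 in Bptf cKO replicates 1 and 2, a log2 difference of -0.57 (limma adjusted p = 0.422) that was close to equal within replicates 1 and 2, at -0.58 and -0.56. *Meis3* stayed under 45 normalized counts in every library, with a log2 difference of 0.82 and a 95% interval from -0.51 to 2.15. *Tgif1* and *Tgif2*, TALE genes outside these families, had log2 differences of 0.12 and -0.52 (limma adjusted p = 0.788 and 0.443), and the other 7 TALE genes of that list were not listed. No HOXD gene was listed, and the 2 listed HOXC genes stayed below the filter.

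Along the HOXA cluster, the level per length was lower over *Hoxa2* to *Hoxa4* than over *Hoxa5* to *Hoxa10*, with its peak at *Hoxa9*, in all 4 libraries. The summed normalized counts of these 8 HOXA genes were 4214 and 4883 in control and 4064 and 3993 in Bptf cKO replicates 1 and 2. In the HOXB cluster *Hoxb4* was the highest gene per length in every library. The 7 other listed HOXB genes followed the replicate number more than the genotype, with sums of 229 and 376 in control and 188 and 429 in Bptf cKO replicates 1 and 2. Of these 7 genes, 6 were higher in replicate 2 in both genotypes, where 32.9% of all tested genes were. *Hoxb9* was at 5.4 and 22.2 in control and 13.6 and 56.4 in Bptf cKO replicates 1 and 2, and *Hoxb8* at 13.2 and 47.1 against 13.0 and 59.3. The pluripotency and *Xist* transcripts were high in the same 2 libraries, and their part in the HOXB values was not tested.

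**Figure D4:**
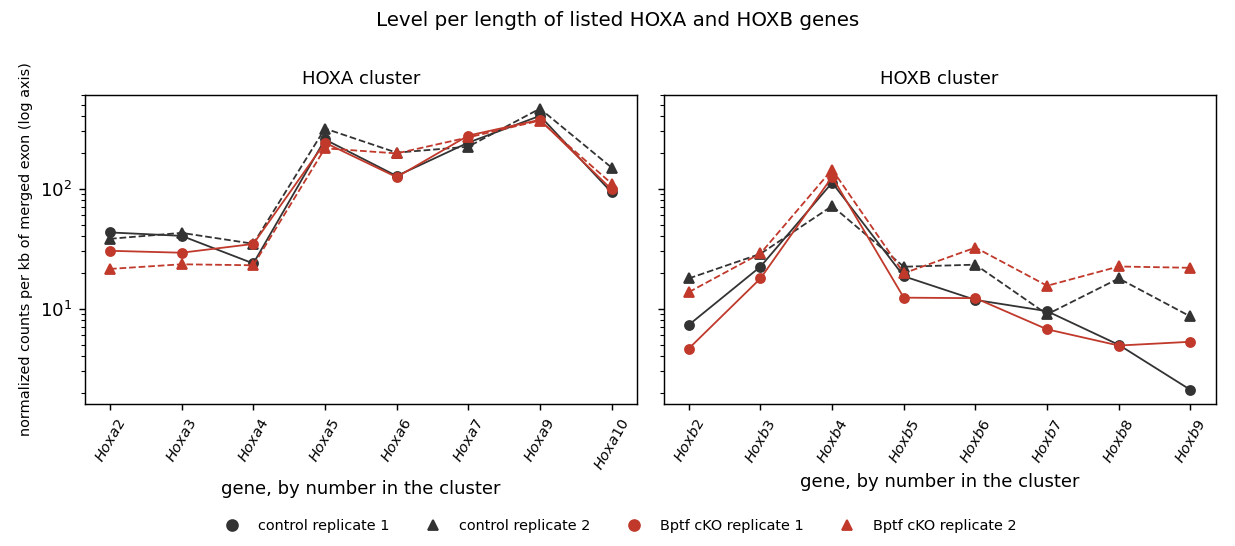
Normalized counts per kb of merged exon (y axis, log scale) of 8 HOXA genes (left) and 8 HOXB genes (right), ordered by their number in the cluster, with 1 line per library, solid for replicate 1 and dashed for replicate 2. *Hoxa9* is the highest HOXA gene in all 4 libraries. Both replicate 2 libraries lie above both replicate 1 libraries at every HOXB gene shown except *Hoxb4* and *Hoxb7*.

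A fixed list of 16 genes known as targets of HOXA9 or MEIS1 in blood stem cells or leukemia, all of them tested, gave 0 calls in limma (0.74% of all tested genes), 5 at an unadjusted p under 0.05 (15.7% of all), 0 in edgeR and 4 in DESeq2 (5.44% of all). Their median log2 difference was -0.15, with 11 lower and 5 higher, beside 0.0010 over all tested genes. The 4 that DESeq2 called fell, namely *Lmo2*, *Erg*, *Mef2c* and *Trib2*. *Lmo2*, a bridging subunit of stem cell transcription complexes, had a log2 difference of -0.48 (limma adjusted p = 0.106, DESeq2 adjusted p = 0.00219). *Erg*, an ETS factor needed for stem cell upkeep, was at 5375 and 5703 in control and 3712 and 4358 in Bptf cKO replicates 1 and 2, a log2 difference of -0.46 (limma adjusted p = 0.161, DESeq2 adjusted p = 0.0412). *Trib2*, a pseudokinase that acts with MEIS1 in leukemia, was at 312 and 154 against 41.6 and 100.2 normalized counts, a log2 difference of -1.74 (limma adjusted p = 0.231, DESeq2 adjusted p = 0.0412). The control libraries of *Trib2* lay further apart than the nearest libraries of the groups, and its log2 difference was -2.88 within replicate 1 and -0.61 within replicate 2. *Mef2c*, a MADS-box factor of lymphoid and myeloid progenitors, had a log2 difference of -0.40 (limma adjusted p = 0.144, DESeq2 adjusted p = 0.0344). Within replicate 1 the log2 difference was -0.55 for *Lmo2*, -0.53 for *Erg* and -0.45 for *Mef2c*. Among the most abundant genes of the list, *Cdk6*, *Cd34* and *Etv6* had log2 differences of 0.39, -0.21 and -0.059 (limma adjusted p = 0.643, 0.561 and 0.814).

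Of 12 regulators known to act on HOX or *Meis1* transcription, 10 were listed and 9 tested, and 0 passed in limma, with 2 at an unadjusted p under 0.05 (15.7% of all tested genes), 0 in edgeR and 1 in DESeq2 (5.44% of all). *Kmt2a*, the H3K4 methyltransferase that maintains HOX expression, was at 7964 and 7997 in control and 8768 and 9331 in Bptf cKO replicates 1 and 2, a log2 difference of 0.18 (95% interval -0.045 to 0.41, limma adjusted p = 0.418). *Psip1*, which tethers the KMT2A and menin complex to chromatin, had a log2 difference of -0.32 (limma adjusted p = 0.270). *Mllt3*, a reader of acylated histones that keeps stem cell genes on, was the DESeq2 call, at 1357 and 1827 against 929 and 1077 normalized counts, a log2 difference of -0.65 (limma adjusted p = 0.191, DESeq2 adjusted p = 0.0410) that was -0.55 within replicate 1. *Npm1* and *Ezh2* had log2 differences of 0.19 and 0.098 (limma adjusted p = 0.583 and 0.689).

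Marker lists for the cells that an LSK sort can hold are given here beside the *Meis1* result. Over all tested genes, 0.74% passed in limma, 5.44% in DESeq2 and 15.7% at an unadjusted limma p under 0.05, while 23.8% had both Bptf cKO libraries below both control libraries and 23.2% had both above. All 7 markers of the most immature stem cells tested had a negative log2 difference, with a median of -0.81, and 5 of the 7 had both Bptf cKO libraries below both control libraries. They include *Hlf* (-0.46) and *Procr* (-0.81). Limma called 0 of the 7, with 4 at an unadjusted p under 0.05, and edgeR and DESeq2 also called 0. Their summed level ran from 11852 to 18141 normalized counts in control and from 8219 to 11180 in Bptf cKO cells. The 6 markers of multipotent and lymphoid-primed progenitors also all had negative differences, with a median of -0.72, but only 2 of the 6 had groups that did not overlap. Limma, edgeR and DESeq2 called 0 of the 6, with 1 at an unadjusted p under 0.05, and summed levels ran from 26933 to 41312 in control and 19382 to 26872 in Bptf cKO cells. The 7 erythroid markers had a median of -1.96, and 6 of the 7 had both Bptf cKO libraries below both control libraries. Limma called 1 that fell (*Epor*), with 5 at an unadjusted p under 0.05, edgeR called 0 and DESeq2 4. Their summed level ran from 2450 to 3341 in control and from 955 to 995 in Bptf cKO cells. The list for the LSK gate held *Kit* and *Ly6a*, which encode c-KIT and SCA-1, and *Ly6e*, which encodes neither sorted antigen. Their log2 differences were -0.010, 0.091 and 0.13, and none passed, with groups of each overlapping. B cell markers differed mainly among the control libraries, with summed levels of 6804 and 1784 in control and 3810 and 2262 in Bptf cKO replicates 1 and 2. Granulocyte and monocyte markers (9 tested, 0 called) had a median of -0.31, with control replicate 2 lowest at a sum of 15125 and the other libraries between 49297 and 65076. They went both ways, and *Ctsg*, the neutrophil protease cathepsin G, had a log2 difference of 2.86 with both Bptf cKO libraries above both control libraries (95% interval 1.31 to 4.42, limma adjusted p = 0.128, DESeq2 adjusted p = 0.0520). T and NK cell markers had 3 of 6 listed, with *Cd3e*, *Cd3d* and *Cd3g* not listed, 0 called and 1 at an unadjusted p under 0.05. Their median was 0.55, 2 of the 3 had both Bptf cKO libraries above both control libraries, and sums were 2473 and 1663 in control and 2846 and 2640 in Bptf cKO replicates 1 and 2. Stromal and endothelial markers had 4 of 5 listed, 3 tested and 0 called, with 1 higher and 2 lower. Their median of -0.75 is the value of *Col1a1*, which reached at most 22.2 normalized counts, and *Cxcl12* reached at most 28.2. *Pecam1*, the most abundant, had a log2 difference of 0.20 with overlapping groups. Sums of the list were 2752 and 1709 in control and 2481 and 2469 in Bptf cKO replicates 1 and 2. The 6 stress genes all had negative differences, with a median of -1.55, but only 3 of the 6 had groups that did not overlap. Their summed level was 36151 and 89670 in control and 12729 and 14932 in Bptf cKO replicates 1 and 2, and DESeq2 called *Fos* and *Jun* as lower while limma and edgeR called 0. Of 7 interferon genes 6 had negative differences, with a median of -0.43, and 5 of the 7 had both Bptf cKO libraries below both control libraries. DESeq2 called *Mx1* as lower while limma and edgeR called 0, with 2 at an unadjusted limma p under 0.05. The part of any of these lists in the *Meis1* result was not tested.

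Likeness to *Meis1* was measured as the Euclidean distance between log2 values over the 4 libraries, each gene centred on its mean, among 10814 other genes whose mean reached 100 normalized counts. The nearest were *Vsig10*, *Pfkm*, *Tmem40*, *Gimap1* and *Stard4*, at distances of 0.047 to 0.067. Among the members, *Hoxa5* came nearest at rank 498 (distance 0.26) and *Hoxa9* followed at rank 676 (0.29), while *Hoxb4* was at rank 10228 (1.24). With 4 libraries this measure only describes profiles.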

How the data were processed

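RNA-seq of sorted LSK cells was available as 1 table for 4 libraries, each from pooled mice, with groups and replicate numbers from the sample labels. The authors deposited a signal per gene and library, a read count divided by a size factor per library, and their own mean, fold change, error and p-values, which were not used. Per the labels, the submitters' processing notes name HISAT2, featureCounts, DESeq2 and GRCm38 (mm10). Their versions, the annotation and the strand setting are not given in the sources used here. Dividing each library by its value for 1 read gave whole reads for 100% of values (within 0.05). No listed gene had fewer than 11 reads in all.

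The 14858 genes whose mean reached 10 normalized counts were log2-transformed after adding 1, a scale that understates changes of low genes, and tested with limma 3.58.1 in R 4.3.3 (trended prior variance, no factor other than genotype, Benjamini-Hochberg adjustment over all tested genes, two-sided). EdgeR 4.0.16 (quasi-likelihood, TMM) and DESeq2 1.42.0 (Wald test) were run on the recovered reads. The fits were tested on simulated data that held no effect shared by libraries of 1 replicate number. That test does not bear on how such an effect moves the calls. P-values measure the spread between pools of mice, not between single mice. Positions, exon lengths and overlaps came from GENCODE vM21 (GRCm38), by symbol. The members and all gene lists were chosen with earlier results of these data known. The genes named are the members, the 4 most abundant tested genes of each list, genes called by limma or DESeq2, and the 5 genes nearest to Meis1. Markers, Hoxb8 and Hoxb9 were named after their values were seen. Alternatives were other pseudocounts, filters, scalings and tests, a replicate block, a fold threshold of 1.5 and each library left out. Some genes of the lists, and a marker list, are not reported here.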

Additional observations from a re-analysis of the deposited data

How the results depend on the processing

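The 9 members were compared under 15 other settings each. *Meis1* kept a negative log2 difference in all 15, between -0.60 and -0.41, with adjusted p values from 0.00228 to 0.527, and passed in 3 of them. Those were DESeq2, and limma and edgeR with the replicate block. Each called 1 of the 9 members, *Meis1* (adjusted p = 0.00884, 0.00228 and 0.00359). Over all 14858 tested genes these fits called 808, 2138 and 2120. A single member of 9 is therefore not a result about the set. *Hoxa5*, *Hoxa7*, *Hoxa9* and *Hoxb4* also kept their direction in all 15 settings and passed in none. Signs turned only for differences near 0 or resting on 1 library. *Pbx2* was at -0.0088 with quantile normalization, and leaving out 1 library each gave -0.017 to 0.041 for *Pbx2*, -0.12 to 0.30 for *Pbx3*, -0.17 to 0.23 for *Pknox1* and -0.52 to 0.16 for *Hoxa10*. Of the 13 other MEIS, PBX, PREP and HOX genes tested, the replicate block called 2 in limma (*Hoxa3* and *Pbx4*) and 1 in edgeR (*Pbx4*), all lower. Of the 16 target genes DESeq2 called 4, all lower, beside 5.44% of all tested genes. The replicate block called 7 in limma and 7 in edgeR, each time with 5 lower and 2 higher (*Bcl2* and *Id2*). These block counts stand beside the 2138 and 2120 calls among 14858 tested genes given above. Over all genes the 110 limma calls became 808 in DESeq2, 2138 in limma and 2120 in edgeR with the replicate block, and 2 in limma without the trend. Leaving out 1 library gave 1 to 117, with 1 call when either Bptf cKO library was left out and 64 without control replicate 2. The cause of these moves was not tested.

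Libraries with the same replicate number deviated together from their group means (correlation 0.45 across the tested genes), but the labels do not say that a number marks a shared batch and there are only 2 pairs, so the paired fits are not the main ones. Recentring libraries on their medians shifted all log2 differences by 0.052. The call of *Bptf* itself was lost in edgeR (adjusted p = 0.0531), after recentring (0.0547), without the trend (0.178) and without any 1 library (0.0647 to 0.316). Depth limits the lowest HOX genes and *Meis3*, with as few as 7 reads in a library for *Hoxb9* and 10 for *Meis3*.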

Other observations

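Among the HOXA9 and MEIS1 target genes, 2 of 16 had both Bptf cKO libraries above both control libraries and 5 of 16 had both below, beside 23.2% and 23.8% of all tested genes. The 2 are named here after their values were seen. *Bcl2*, a survival factor, was at 2392 and 1933 normalized counts in control and 2800 and 3031 in Bptf cKO replicates 1 and 2, a log2 difference of 0.44 (95% interval 0.098 to 0.78, limma adjusted p = 0.228). *Id2*, an inhibitor of E-protein factors, was at 129 and 132 in control and 170 and 586 in Bptf cKO replicates 1 and 2, so that its log2 difference of 1.27 (limma adjusted p = 0.380) rests mostly on Bptf cKO replicate 2.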
